A study of Mus musculus with 4 samples.

Results

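The imprinted Dlk1-Dio3 domain of mouse chromosome 12 was described through 6 genes chosen by name, *Dlk1*, *Meg3*, *Rtl1*, *Rian*, *Mirg* and *Dio3*, out of 37310 genes in the count table. RNA was sequenced from HATX cells, a line of mouse embryonic stem cells (mESCs) that carries an *Xist* transgene that doxycycline can switch on. Wild-type (WT) HATX cells were compared with a derived line labelled *Spen* knockout (KO), clone 2, with 2 libraries per group and no treatment named. Both lines were of mixed genetic background and were grown in serum and LIF, and the study describes them as haploid. Each group is 1 cell line, so *Spen* and every other difference between the clone and the WT line cannot be told apart. Which parent's chromosome 12 the cells carry is not given in the sources used here.

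In this domain, genes on the chromosome inherited from the mother produce non-coding RNAs, and genes on the chromosome inherited from the father produce proteins. *Meg3*, *Rian* and *Mirg* are the maternal RNAs and lie one after the other, with a large array of C/D snoRNA genes in and after *Rian* and a cluster of microRNA hairpins in and before *Mirg*. *Dlk1*, a membrane protein related to Notch ligands, *Rtl1*, a protein derived from a retrotransposon, and *Dio3*, a deiodinase that inactivates thyroid hormone, are the paternal coding genes. A control region upstream of *Meg3*, methylated on the paternal copy, sets which genes are used, and mESC lines are known to lose expression of the maternal RNAs.

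Between the start of *Dlk1* and the end of *Dio3* lie 828.3 kb with 88 annotated genes, of which 57 are microRNA hairpins, 23 are snoRNA genes, 5 are lincRNAs and 3 are coding. Mature microRNA sequences from RefSeq (GRCm38.p6) were matched inside 53 of the 57 hairpins. They comprised 98 different sequences with 91 different seeds, and 7 seeds were shared by more than 1 sequence. *Rtl1* is transcribed against the direction of the maternal RNAs, and 11 mature sequences from 6 hairpins were perfectly complementary to its exons. One from each of these hairpins is shown, because they bear on how reads over *Rtl1* can be read, with the seed (bases 2 to 8) in capitals.
mmu-miR-431-5p: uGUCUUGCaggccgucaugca
mmu-miR-433-3p: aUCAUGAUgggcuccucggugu
mmu-miR-127-3p: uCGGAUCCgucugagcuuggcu
mmu-miR-434-3p: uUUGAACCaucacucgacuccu
mmu-miR-432: uCUUGGAGuagaucagugggcag
mmu-miR-136-5p: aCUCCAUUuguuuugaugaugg

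The next sequences come from hairpins whose reads fell, given with the microRNAs that share their seeds, and from 1 further pair with a common seed. mmu-miR-453 and mmu-miR-496a-5p share GGUUGCC, mmu-miR-3070-3p and mmu-miR-3070-2-3p share GGUGCUA, and mmu-miR-379-3p and mmu-miR-411-3p share AUGUAAC.
mmu-miR-382-5p: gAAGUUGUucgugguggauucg
mmu-miR-382-3p: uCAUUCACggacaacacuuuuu
mmu-miR-453: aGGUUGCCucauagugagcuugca
mmu-miR-496a-5p: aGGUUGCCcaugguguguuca
mmu-miR-3070-5p: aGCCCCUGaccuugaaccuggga
mmu-miR-3070-3p: uGGUGCUAccgucagggguaga
mmu-miR-3070-2-3p: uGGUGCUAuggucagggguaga
mmu-miR-379-3p: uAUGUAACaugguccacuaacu
mmu-miR-411-3p: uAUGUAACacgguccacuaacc

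*Spen*, the targeted gene, was counted first. Both KO-labelled libraries (7797 and 6242 normalized counts) were above both WT libraries (3716 and 3047), so it was higher there by 1.05 ± 0.21 on the log2 scale (SE, DESeq2 adjusted p = 7.70e-06). A gene total does not say which exons the reads came from, so it does not check the KO label, which is used as given. Total counts ranged from 36667685 to 61908422 per library. The 8 listed markers of embryonic stem cells summed to 221982 and 227225 normalized counts in WT and to 229761 and 240985 in KO-labelled libraries. None of the 8 was called, against 3.15% of all genes called lower and 1.36% higher. At an adjusted p of 0.05, *Dppa5a* (0.28, 0.000177) and *Zfp42* (0.23, 0.0149) were higher, against 16.4% of all genes, and 0 were lower, against 15.8%. When each chromosome's median was removed, these no longer passed (0.0836 and 0.255), and *Esrrb* (0.29, 7.93e-05) and *Klf4* (0.22, 0.0193) did. In that fit 12.4% of all genes passed as higher.

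The maternal RNAs were all several fold lower in the KO-labelled libraries. Values below are counts divided by DESeq2 size factors (normalized counts), and a call required an adjusted p under 0.001 and a change of 2-fold or more, the thresholds of the study. Of the 6 domain genes 4 were called lower, *Meg3*, *Rian*, *Mirg* and *Rtl1*, and 0 were called higher, while over all 17710 genes tested 3.15% were called lower and 1.36% higher. In a bulk sample, fewer cells that express a gene and less RNA per cell cannot be told apart.

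*Meg3*, the first RNA of the maternal series, lies at chr12:110779211-110809936 on the plus strand (ENSMUSG00000021268.10, mm9). Its normalized count was 6475 and 6037 in WT and 1856 and 1895 in KO-labelled libraries. Both KO-labelled libraries were far below both WT libraries, and the replicates of each group lay close together. The log2 fold change was -1.74 ± 0.08 (SE, adjusted p = 6.39e-95), a level 3.34-fold lower.

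*Rian*, which hosts C/D snoRNA genes, lies at chr12:110842155-110899919 on the plus strand (ENSMUSG00000091793.1). It was the most abundant of the domain genes, with 31237 and 28432 normalized counts in WT and 7430 and 8076 in KO-labelled libraries. The groups did not overlap, and the log2 fold change was -1.94 ± 0.08 (SE, adjusted p = 2.35e-143). Part of its sequence is not unique: 26.4% of its exonic bases had a copy of at least 95% identity outside the gene, against 5.22% for *Meg3* and 0 for *Mirg*, *Dlk1* and *Dio3*.

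*Mirg*, the host of the distal hairpin cluster, lies at chr12:110973191-110987665 on the plus strand (ENSMUSG00000091158.1). Its normalized count was 3358 and 2873 in WT and 670.5 and 755.9 in KO-labelled libraries. This was the largest fall among the 6 genes, 4.36-fold, with a log2 fold change of -2.13 ± 0.11 (SE, adjusted p = 2.24e-74). Whether it differed from the falls of *Meg3* and *Rian* was not tested.

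**Figure D1:**
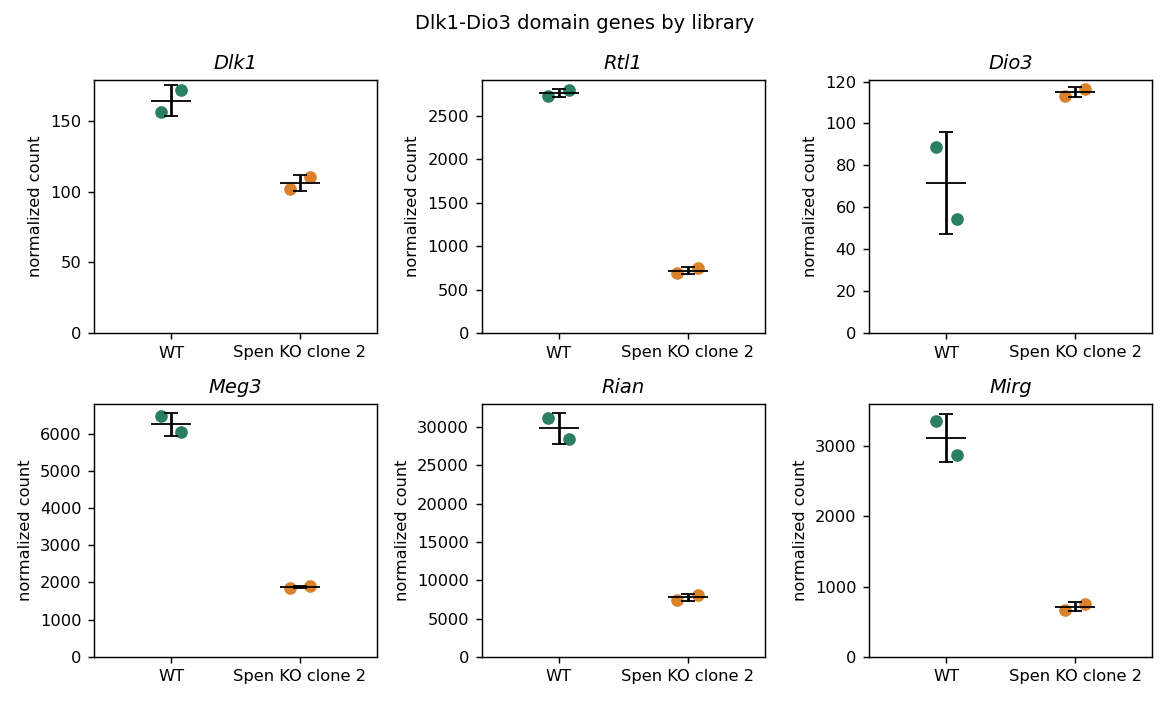
Normalized counts of the 6 domain genes in each library, with the vertical axis of each panel starting at 0. Points are the 2 WT and 2 KO-labelled libraries, and the bar and whiskers are the mean and SD. The KO-labelled points lie below the WT points for *Dlk1*, *Rtl1*, *Meg3*, *Rian* and *Mirg* and above them for *Dio3*, where the WT libraries are 88.8 and 54.4.

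The paternal coding genes gave 3 different pictures. Counts over *Rtl1*, which may come from either strand, fell. *Dlk1* had a value below 0 and *Dio3* one above 0, and these 2 did not pass the test. *Rtl1*, needed in placental vessels, lies at chr12:110827404-110838540 on the minus strand (ENSMUSG00000085925.2). Its normalized count was 2736 and 2798 in WT and 690.5 and 746.5 in KO-labelled libraries, a log2 fold change of -1.94 ± 0.10 (SE, adjusted p = 1.08e-75).

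Reads over *Rtl1* could not be assigned to a strand. Over host genes with at least 1000 counts, small-RNA genes in introns held a count in 87.2% of cases on the strand opposite the host and in 87.8% on the same strand, and those inside exons held one in 0% on either strand. The deposited counts therefore did not separate strands, and reads that overlapped more than 1 gene were left out of them. Accordingly the 6 hairpin genes inside *Rtl1* exons, whose sequences are given above, were at 0 counts in every library. RNA of *Rtl1* and RNA of the opposite, maternally expressed strand cannot be told apart in its value.

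*Dlk1*, at chr12:110691033-110701546 on the plus strand (ENSMUSG00000040856.11), was low in all libraries. Its normalized count was 156.4 and 172.1 in WT and 101.9 and 110.3 in KO-labelled libraries. The groups did not overlap, which also held, in the same direction, for 35.1% of genes whose mean normalized count reached 10. The log2 fold change was -0.63 ± 0.29 (SE, 95% interval -1.21 to -0.06) and the DESeq2 adjusted p was 0.0862, in a range of 0.0126 to 0.454 over the alternative settings, with the lowest from edgeR.

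*Dio3*, an exon of 2030 bases at chr12:111517278-111519307 on the plus strand (ENSMUSG00000075707.4), had the other direction. Its normalized count was 88.8 and 54.4 in WT and 113.2 and 116.6 in KO-labelled libraries. The WT libraries were apart from each other by more than the KO-labelled ones were. The log2 fold change was 0.69 ± 0.37 (SE, 95% interval -0.04 to 1.42), with an adjusted p of 0.156 in DESeq2 and 0.0434 in edgeR. It was 1.08 without WT replicate 1 and 0.38 without WT replicate 2. The antisense RNA *Dio3os*, just upstream of it, held 4 and 3 counts in WT and 16 and 13 in KO-labelled libraries, a log2 fold change of 1.5 ± 1.20 (SE, adjusted p = 0.385).

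Levels were compared between genes per kilobase of exon. In WT, *Rian* had 3640 ± 242 normalized counts per kb, *Mirg* 981 ± 108, *Rtl1* 435 ± 6.80, *Meg3* 346 ± 17.1, *Dio3* 35.3 ± 12 and *Dlk1* 29.0 ± 1.95 (SD, n = 2). All neighbours in this order were separated by more than their SDs, except *Dio3* and *Dlk1*. The SDs cover only the spread between libraries. Lengths were of all annotated exons together (18089 bases for *Meg3*), and reads that overlapped more than 1 gene were left out. Reads over *Rtl1* may come from either strand. The order may therefore differ from that of the RNA levels. In KO-labelled libraries the levels were 946 ± 55.7 for *Rian*, 225 ± 19.0 for *Mirg*, 113 ± 6.24 for *Rtl1*, 104 ± 1.53 for *Meg3*, 56.6 ± 1.19 for *Dio3* and 18.8 ± 1.06 for *Dlk1*. The order was kept, and the ratio of *Dio3* to *Meg3* per kb was 0.122 and 0.0804 in WT and 0.544 and 0.548 in KO-labelled libraries. That of *Rian* to *Meg3* was 10.7 and 10.4 against 8.84 and 9.41.

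Chromosome 12 as a whole was lower in the KO-labelled libraries, so the domain was also set against its chromosome. The median log2 fold change was -0.32 over the 466 chromosome 12 genes whose mean normalized count reached 50, and 85.6% were below 0, while the median of all 13306 such genes was 0.03. Without the domain the chromosome 12 median was also -0.32, and over 108 genes within 10 Mb of the domain it was -0.31. Only chromosome 10 had a lower median, -0.35, among the chromosomes with at least 100 genes. Of 646 chromosome 12 genes tested 7.12% were called lower, 46 genes, of which 10 lie in the domain and 4 are domain genes named here.

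When each chromosome's median was removed before the test, *Meg3*, *Rian*, *Mirg* and *Rtl1* were still called lower than chromosome 12. Their log2 fold changes were then -1.42 ± 0.08 (adjusted p = 4.78e-62), -1.62 ± 0.08 (3.16e-99), -1.81 ± 0.12 (2.09e-52) and -1.63 ± 0.11 (1.93e-51), and 3.16% of the 17230 genes tested were called lower in this way and 1.22% higher. Before the removal, only 2.58% of chromosome 12 genes had a lower log2 fold change than *Mirg*, and 5.16% had one lower than *Meg3*. For *Dlk1* the remainder was -0.31 ± 0.29 (adjusted p = 0.494), with an interval of -0.89 to 0.27.

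*Dio3* was above its chromosome. Its log2 fold change after removal was 1.01 ± 0.37 (SE, adjusted p = 0.0265, in a range of 0.00701 to 0.406 over the alternatives), which passed an adjusted p of 0.05, as 12.4% of genes did in that direction, but not the 0.001 of a call. Before the removal 99.1% of the chromosome 12 genes had a lower log2 fold change than *Dio3*.

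**Figure D2:**
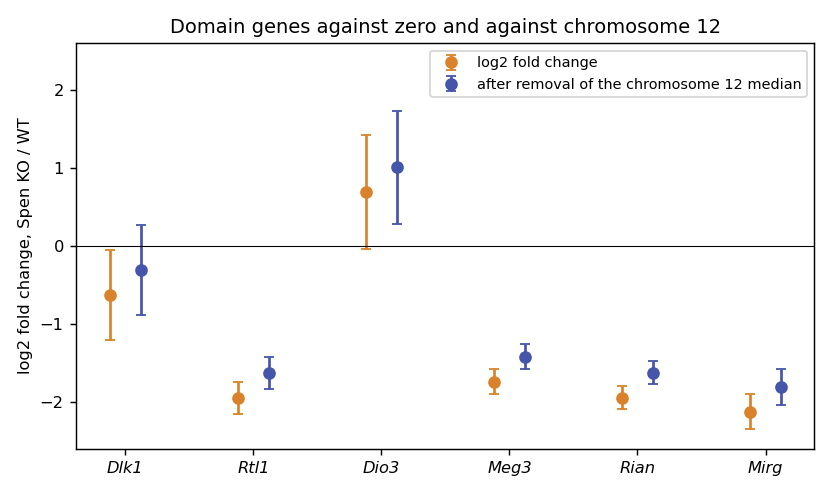
Log2 fold changes of the 6 domain genes (KO-labelled over WT) with 95% intervals, before and after the median of chromosome 12 was removed. *Rtl1*, *Meg3*, *Rian* and *Mirg* stay between -1.42 and -2.13, the interval of *Dlk1* includes 0 after removal (-0.89 to 0.27), and that of *Dio3* no longer does (0.29 to 1.73).

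Among the 5 nearest coding genes on each side, 1 was called lower, where 7.12% of chromosome 12 genes were. On the *Dlk1* side, *Wars*, the tryptophan tRNA synthetase, was at -0.41 ± 0.07 (adjusted p = 1.63e-07) and *Wdr25* at -0.65 ± 0.17 (0.000581), and *Yy1*, *Slc25a29* and *Slc25a47* did not pass the test, at -0.13, -0.44 and -0.05. On the *Dio3* side, *Ppp2r5c*, a phosphatase subunit, was at -0.40 ± 0.08 (3.43e-06) and *Dync1h1*, the dynein heavy chain, at -0.27 ± 0.08 (0.00641). *Hsp90aa1* and *Wdr20a* did not pass, at -0.17 and -0.15. After removal of the chromosome median, none of these 9 genes passed an adjusted p of 0.05. The tenth neighbour, *Stk30*, a kinase gene 526.7 kb beyond *Dio3*, was called lower, from 1099 and 1076 to 384.0 and 417.1 normalized counts, and remained so after removal (-1.12 ± 0.14, adjusted p = 6.15e-14).

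**Figure D3:**
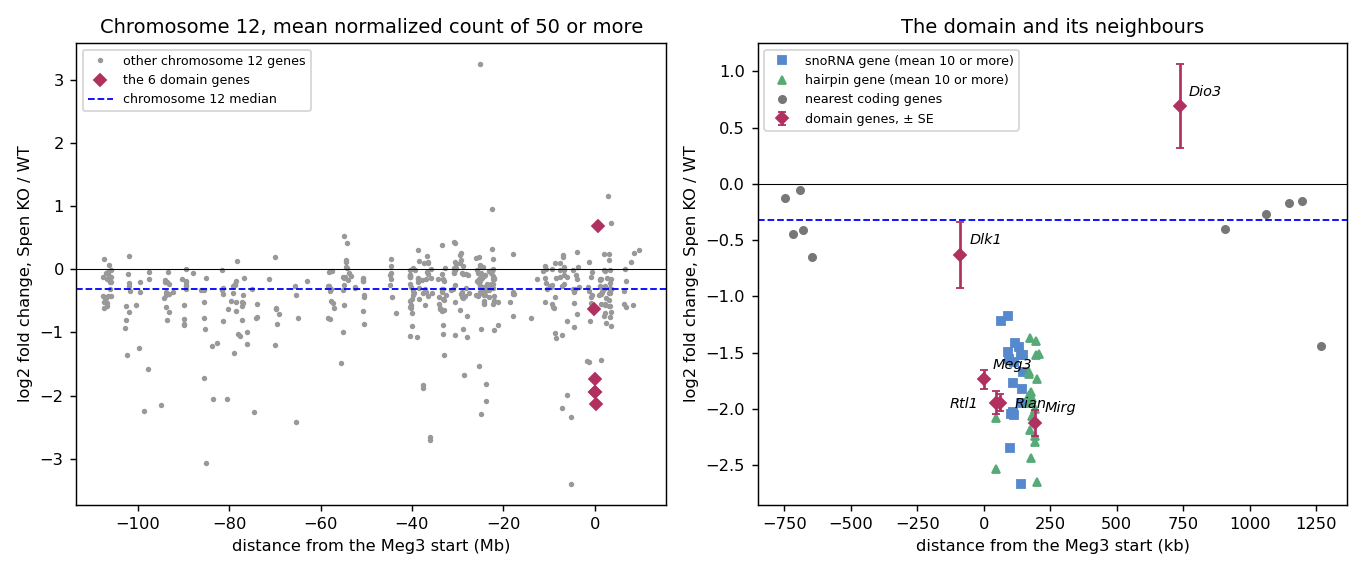
Log2 fold change (KO-labelled over WT) against distance from the *Meg3* start. The left panel shows chromosome 12 genes whose mean normalized count reached 50, and the right panel shows the domain with its 10 nearest coding genes, hairpin and snoRNA genes with a mean of at least 10, and SE bars on the domain genes. The dashed line is the chromosome 12 median of -0.32. Small-RNA genes lie between -2.66 and -1.18, beside *Meg3*, *Rian*, *Rtl1* and *Mirg*.

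Summed reads over the small-RNA genes of the domain were lower in both KO-labelled libraries. The libraries were not made from small RNA, so reads over a hairpin or snoRNA gene stand for longer RNA that runs through it as well as for any product, and mature microRNAs were not measured. Of the 80 hairpin and snoRNA genes, 13 held no count in any library, among them 12 inside exons of the domain genes, where overlapping reads were left out. The 80 genes summed to 1864 and 1826 normalized counts in WT and to 481.5 and 500.8 in KO-labelled libraries, 3.76-fold lower. Of the 51 with an adjusted p, 6 were called lower and 0 higher, against 3.15% and 1.36% of all genes. At the looser limit of 0.05 on the adjusted p, 21 were lower and 0 higher, while over all genes 15.8% were lower and 16.4% higher.

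Of the 67 small-RNA genes with any count, 66 had a log2 fold change below 0. The 39 whose mean over all libraries reached 10 had a median of -1.85, and in each of them both KO-labelled libraries lay below both WT libraries. This is a description only, since 21 of the 39 had a KO-labelled mean under 10 and reached the minimum through WT alone, and 18 had both means at 10 or more. Over 298 hairpin and snoRNA genes outside the domain with the same minimum, the median was -0.32, 70.5% were below 0, 47.7% had such groups and 2.35% were called lower. Of the 39, 17 lie in introns of *Rian* or *Mirg* and 22 lie between annotated genes, and reads of 1 longer RNA can cover several of them, so they may not be independent measurements. After removal of the chromosome medians, 13 of the 41 with an adjusted p passed 0.05 as lower, against 14.8% of all genes, and 1 was called, AC152063.3 (-2.22 ± 0.49), against 3.16%.

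Sums were lower in each of the 4 segments that held counts. The 7 hairpin genes between *Meg3* and *Rian* that lie outside *Rtl1* exons summed to 217.4 and 248.3 normalized counts in WT and 44.4 and 54.8 in KO-labelled libraries, 4.70-fold lower. The 34 hairpins before and within *Mirg* summed to 859.1 and 821.1 against 207.2 and 226.2, 3.88-fold lower. The 21 snoRNA genes in and after *Rian* that held a count summed to 741.1 and 720.9 against 219.4 and 208.2, 3.42-fold lower. Differences between the segments were not tested.

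**Figure D4:**
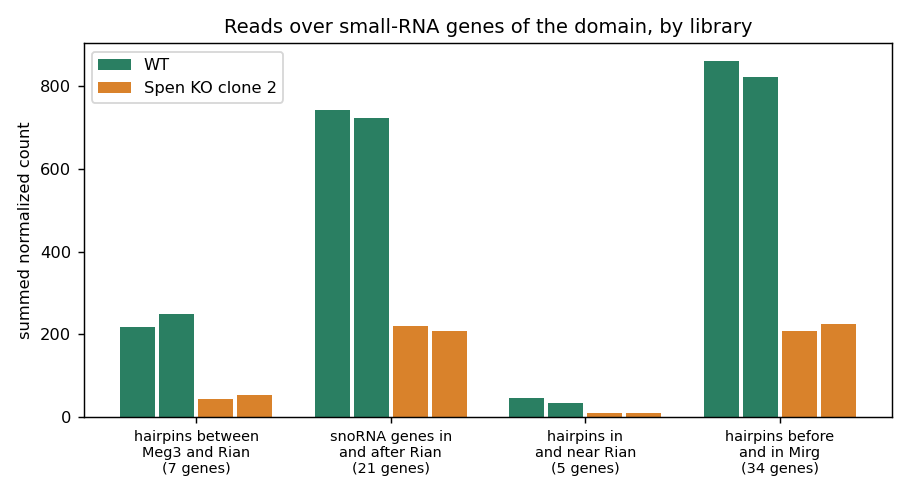
Summed normalized counts over hairpin and snoRNA genes of the domain in each library, by segment, with bars that start at 0 (2 WT bars, then 2 KO-labelled bars). In each of the 4 segments both KO-labelled bars are below both WT bars, as in the cluster before and within *Mirg*, where WT has 859.1 and 821.1 and KO-labelled libraries have 207.2 and 226.2.

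The 6 small-RNA genes called lower lay in all 3 of the larger segments. The hairpins AC152063.2 and AC152063.3, which hold the mmu-miR-3070 sequences printed above, had 66 and 74 counts in WT against 25 and 23, and 67 and 118 against 16 and 30. Their log2 fold changes were -2.08 ± 0.49 and -2.53 ± 0.48 (SE). *Mir382* had 49 and 55 counts against 13 and 18, a log2 fold change of -2.29 ± 0.58, and *Mir453*, in an intron of *Mirg*, had 50 and 70 against 24 and 19, -2.0 ± 0.53. *Mir496*, which shares the seed of *Mir453*, had 16 and 14 against 5 and 12 counts.

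The other 2 were SNORD113 genes in introns of *Rian*. C/D snoRNAs guide 2′-O-methylation and carry a C box near the 5′ end and a D box near the 3′ end. The core letters TGATGA in the first 20 bases and CTGA in the last 20 were both found in 14 of the 23 snoRNA genes of the domain (60.9%) and in 17.1% of 1529 other snoRNA genes, which include H/ACA types. The first called gene, chr12:110879232-110879304 on the plus strand of mm9, had 59 and 66 counts in WT against 15 and 21 (log2 fold change -2.34 ± 0.53) and did not hold both boxes by this search. The second, chr12:110894555-110894626 on the plus strand, had 61 and 77 against 23 and 25 (-2.06 ± 0.49) and held both, shown in capitals.
First SNORD113 gene: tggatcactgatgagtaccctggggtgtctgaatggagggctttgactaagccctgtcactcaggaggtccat
Second SNORD113 gene: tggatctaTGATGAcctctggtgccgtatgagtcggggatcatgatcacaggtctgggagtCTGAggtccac

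Start regions of *Meg3*, the first of the maternal RNAs, and *Dio3* are shown because their log2 fold changes had opposite signs. That of *Dio3* did not pass the test against 0. The regions are from RefSeq (GRCm38.p6, 300 bases each, plus strand, chr12:109540746-109541045 and chr12:110278980-110279279). The letters TGCCGC, the core read by the imprint-keeping protein ZFP57, were searched on both strands, where the reverse complement is GCGGCA. This *Meg3* region held 1 match, in capitals, and 13 CpGs, and a second annotated *Meg3* start region held 0 matches and 1 CpG. The regions of *Dlk1*, *Dio3*, *Rian* and *Mirg* held 0 matches, with 9, 25, 0 and 10 CpGs. Of 32851 promoters of this length, 11.6% held a match, and the median was 7 CpGs. A match describes letters only, and DNA methylation was not measured here.
Meg3 start region: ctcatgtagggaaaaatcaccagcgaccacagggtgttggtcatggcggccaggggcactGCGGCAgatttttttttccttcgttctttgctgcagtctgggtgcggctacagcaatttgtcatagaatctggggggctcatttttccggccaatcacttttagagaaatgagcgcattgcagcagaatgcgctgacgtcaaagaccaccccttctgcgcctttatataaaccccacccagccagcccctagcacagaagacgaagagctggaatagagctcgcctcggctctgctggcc
Dio3 start region: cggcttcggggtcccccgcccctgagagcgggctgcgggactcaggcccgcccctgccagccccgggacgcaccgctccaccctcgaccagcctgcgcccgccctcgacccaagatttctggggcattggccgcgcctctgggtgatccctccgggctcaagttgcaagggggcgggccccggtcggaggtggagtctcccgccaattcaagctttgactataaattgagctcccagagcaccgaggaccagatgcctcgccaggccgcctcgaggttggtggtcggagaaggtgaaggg

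Of the listed imprint regulators, more passed as higher than as lower in the DESeq2 fit of all libraries. The list mixes genes that set or keep methylation with *Tet1* and *Tet2*, which oxidise it, and Polycomb genes such as *Ezh2*. The directions under the other settings are not given here. Of 20 listed regulators, 13 passed an adjusted p of 0.05 as higher and 4 as lower, with a median log2 fold change of 0.21, against 16.4% of all genes higher, 15.8% lower and a median of 0.00. *Dnmt3l*, the cofactor of de novo methylation, was the only one called, at 16448 and 15599 normalized counts in WT and 6470 and 6706 in KO-labelled libraries (-1.28 ± 0.07, adjusted p = 1.59e-72). It lies on chromosome 10, and after removal of that chromosome's median its value was -0.94 ± 0.07, under the 2-fold of a call. *Dnmt3b*, a de novo methyltransferase, was at -0.79 ± 0.07 (3.18e-29) and *Dppa3*, which protects maternal methylation, at -0.55 ± 0.09 (4.72e-09). *Dnmt3a*, on chromosome 12, did not pass, at -0.06 ± 0.07, but after removal it passed 0.05 as higher, at 0.26 ± 0.07 (0.00103). After removal, 10 regulators were higher and 4 lower, against 12.4% and 14.8% of all genes, and none was called.

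The 3 regulators with the smallest adjusted p among those that were higher were *Ezh2*, the Polycomb methyltransferase, at 0.95 ± 0.07 (5.27e-37), *Tet2*, a 5-methylcytosine oxidase, at 0.61 ± 0.08 (2.38e-14), and *Hells*, a chromatin remodeller, at 0.63 ± 0.08 (6.42e-14). *Hells*, on chromosome 19, was at 0.25 ± 0.08 (0.00913) after removal of that chromosome's median. *Zfp57* itself was at 0.21 ± 0.07 (adjusted p = 0.0106) and its partner *Trim28* at 0.26 ± 0.09 (0.0129), which no longer passed after removal (0.16, 0.169). The count of 17 regulators fell to between 9 and 13 when 1 library was left out.

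Of genes that act with the domain's products, those of the Notch pathway moved in both directions, and the thyroid hormone genes called were lower. For the Notch pathway, to which *Dlk1* is related, 12 of 14 genes were tested, 2 were higher and 6 lower at the limit of 0.05 and none was called, against 16.4% and 15.8% of all genes at that limit. *Notch3*, a receptor, was at -0.84 ± 0.11 (4.83e-12), *Hes1*, a target, at -0.76 ± 0.15 (3.56e-06) and *Jag2*, a ligand, at -0.58 ± 0.14 (0.000168), while *Notch4* was at 0.68 ± 0.10 (6.25e-10) and *Rbpj*, the DNA-binding partner, at 0.20 ± 0.07 (0.0183). *Jag2*, on chromosome 12, and *Rbpj* no longer passed after removal of the chromosome medians, at -0.26 (0.153) and 0.14 (0.131). For thyroid hormone handling, where *Dio3* acts, 6 of 10 genes were tested and 2 were called lower, against 3.15% of all genes, *Slc16a10*, a transporter (-1.44 ± 0.31, adjusted p = 2.37e-05), and *Crym*, a hormone-binding protein (-1.25 ± 0.32, 0.000671). After removal, *Slc16a10*, on chromosome 10, was no longer called (-1.10 ± 0.31, 0.00275). In this list 0 genes were higher at the limit of 0.05 before removal and 1 after, against 16.4% and 12.4% of all genes. Of the other deiodinases, *Dio1* had 0 and 2 counts in WT and 0 and 8 in KO-labelled libraries, and *Dio2* had 2 and 2 against 0 and 0.

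Of 12 genes for microRNA and snoRNA processing, 2 were higher and 4 lower, with a median of -0.06 and none called, against 16.4% and 15.8% of all genes. *Prkra*, a Dicer partner, was at -0.88 ± 0.19 (2.97e-05), *Dicer1* at -0.32 ± 0.07 (0.000100) and *Nop56*, a core C/D snoRNP protein, at -0.22 ± 0.07 (0.00801), and *Nhp2l1* and *Xpo5* were at 0.20 and 0.18. *Dicer1* lies on chromosome 12, and after removal of that median its value was 0.00. *Nhp2l1* no longer passed after removal either (0.13, 0.176), and *Drosha*, which cuts hairpins from longer RNA, newly passed as lower (-0.16, 0.0495).

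Sums of markers of differentiated cells also differed between the groups. Summed normalized counts of 8 mesoderm markers were 587 and 646 in WT and 185 and 204 in KO-labelled libraries, with *T* (-3.74 ± 0.28, adjusted p = 7.73e-38) and *Kdr* (-1.68 ± 0.43, 0.000673) lower. Without *T* the sums were 210 and 221 against 158 and 172, and 4 of the other 7 markers had values above 0, none of which passed the test. The primitive endoderm markers summed to 538 and 582 against 286 and 247, with *Sox7* (4.53e-05) and *Gata4* (0.00140) lower. Neural markers summed to 9859 and 9803 against 8442 and 8845, with *Pax6* at -2.33 ± 0.23 and *Mtap2* at -1.29 ± 0.17, and trophoblast markers to 5419 and 5517 against 4369 and 4663, with *Eomes*, *Krt18* and *Cdx2* among 4 lower and *Ascl2* the 1 higher of 7 tested at an adjusted p of 0.05, where 15.8% of all genes were lower and 16.4% higher. The cells were grown on gelatin. Fibroblast markers summed to 321 and 331 against 521 and 591, with *Thy1* higher (1.59 ± 0.23), *Twist1*, on chromosome 12, lower only before removal (-1.18 ± 0.47), and *Lum* and *Postn* at 0 to 2 counts. Without *Thy1* the sums were 203 and 194 in WT and 164 and 177 in KO-labelled libraries. The part of these cells in the values of the domain was not tested.

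The 5 genes outside the domain whose profile over the 4 libraries was closest to that of *Meg3* were *Gria3*, *Rps3a*, *Ap1m2*, *Grhl1* and *Mt2*. Closeness was the root mean square distance between centred log2 normalized counts, and these 5 were at 0.0162 to 0.0343. *Rian* was at 0.109 and *Rtl1* at 0.118, and of 13297 genes compared 49 and 55 outside the domain were closer, while *Dio3* was at 1.24. Over 4 libraries in 2 groups, the measure chiefly reads a fold change of similar size.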

How the data were processed

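Per the labels, total RNA was depleted of ribosomal RNA and made into stranded libraries, and the authors deposited a table of raw counts of reads by gene, made with STAR, genome build mm9, and featureCounts on GENCODE vM1. Versions, strand setting and the treatment of reads with several matches are not given in the sources used here. Groups and replicate numbers came from sample titles. The labels do not say that replicates were separate cultures, so p-values measure the spread between these libraries, which may be technical.

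All genes were fitted with DESeq2 1.42.0 in R 4.3.3 (group alone, Wald test, Benjamini-Hochberg adjustment), as in the study, and a second time with each chromosome's median log2 fold change (genes of mean 50 or more) entered as a gene-wise normalization factor. edgeR 4.0.16 (quasi-likelihood) was an alternative. Scripts were tested on simulated data. Lengths and positions came from GENCODE vM1, and sequence copies from blastn 2.17.0 (95% identity, at least 75 bases).

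The members and lists were chosen with earlier results of these data known. Named genes were the 6 genes and the 5 nearest coding genes on each side with a mean of at least 50. The 5 genes closest to *Meg3* and up to 3 genes per direction in each list were also named. So were all other genes between *Dlk1* and *Dio3* with at least 10 counts, of which the text gives those called and *Dio3os*. *Mir496*, *Zfp57*, *Trim28*, *Dnmt3a*, *Drosha*, *Esrrb* and *Klf4*, and listed genes at or near 0, were named after their values were seen. Of 8 neural markers, 7 matched.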

Additional observations from a re-analysis of the deposited data

How the results depend on the processing

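In every alternative run, the 4 genes *Meg3*, *Rian*, *Mirg* and *Rtl1* were the count called lower, both against 0 and against the chromosome 12 median: 4 under edgeR, TMM or upper-quartile scaling, no independent filtering, a low-count filter, an adjusted p of 0.05 with no fold minimum, and with each library left out. Against the median of the local 10 Mb, run only for the second count, it was also 4. The chromosome 12 median of -0.32 was -0.33 with edgeR (-0.3347) and with the low-count filter (-0.3320), -0.28 with upper-quartile factors (-0.2823), -0.36 at a minimum mean of 10 (-0.3644), -0.27 at a minimum of 500 (-0.2748), and -0.3174 to -0.2945 with 1 library left out. Without the domain, an alternative chosen after seeing the data, it was -0.3151.

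The replicate numbers did not pair the libraries (correlation of deviations -0.018 over 13306 genes). With the number as a replicate block, 4 domain genes were still called lower and 10 imprint regulators, in place of 17, passed an adjusted p of 0.05. With 1 library left out 9 to 13 passed. Such a fit leaves 1 library in a group, which is assumed to vary like the other group.

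Of 540 fold changes of 54 named genes under these settings, 480 kept direction and side of the threshold, 54 no longer passed it and 3 newly passed it (*Dlk1* and *Dio3* in edgeR, *Hsp90aa1* without KO replicate 1). These 54 genes are fewer than the 71 genes of the domain with at least 10 counts, so the hairpin and snoRNA genes were not all covered. Signs changed for 3 neighbours: over the fits without 1 library, *Yy1* ranged from -0.2572 to 0.0288 (the latter without WT replicate 2), *Slc25a29* from -1.1207 to 0.0304 (without KO replicate 2) and *Slc25a47* from -0.1293 to 0.0319 (without KO replicate 1). The cause was not tested. *Dlk1* and *Dio3* held 50 to 158 counts per library, with SEs of 0.29 and 0.37, against 0.08 to 0.11 for the 4 called genes.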
